A study of Arabidopsis thaliana with 6 samples.

Results

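The Aux/IAA and GH3 genes of *Arabidopsis thaliana* were examined in seedlings of the *prp40c-1* mutant and of wild type. They are 34 loci chosen by gene name, 28 Aux/IAA and 6 GH3 genes, among the 33602 genes of the deposited count table. RNA sequencing was performed on 6 libraries of polyadenylated RNA from whole seedlings, 3 of wild type and 3 of *prp40c-1*. The seedlings were 2 weeks old by the labels, which also give a harvest after 10 to 14 days. They were stratified for 4 days and grown at 22°C in continuous white light of 50 μmol per square metre per second. Both genotypes are in the Col-0 background and neither received a treatment. The mutant is a single T-DNA insertion line in *PRP40C* (AT3G19840), a gene related to splicing factors of the U1 snRNP, so the insertion and any other difference of that line cannot be told apart. The study's methods describe the 3 libraries of each genotype as biological replicates, and p-values measure the spread between them. Library totals were between 34200225 and 40919516 counts. *PRP40C* itself was measured at 24.6, 28.1 and 22.6 CPM (read counts scaled to library size) in wild type and at 11.8, 14.0 and 12.7 CPM in the mutant, a log2 fold change of -0.97 (SE 0.11, adjusted p = 2.1e-05, edgeR), and the genotypes did not overlap. These counts are of the whole gene and do not measure the intact transcript. With RT-PCR primers on both sides of the insertion, the study reported strongly reduced full-length mRNA.

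Aux/IAA proteins are short-lived nuclear repressors of the auxin response. They bind the ARF transcription factors at auxin-regulated promoters and recruit TOPLESS corepressors, and auxin brings them together with the TIR1/AFB receptors, after which they are degraded. Many Aux/IAA genes are themselves induced by auxin, so the pathway represses itself. The GH3 enzymes examined here join amino acids to the auxin indole-3-acetic acid and lower its active pool, and their genes are also induced by auxin.

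The sequence that the receptors bind, the degron, is shown for the 3 Aux/IAA genes that were overexpressed in the mutant and for the chromosomal neighbours of a pair of them, because it is what makes these proteins auxin-sensitive. The coding sequence is from RefSeq (assembly TAIR10.1), 5′ to 3′, and capitals mark the 5 codons of its core, which encode a glycine, a tryptophan, a pair of prolines and a valine. The *IAA2* stretch lies at chr3:8181378-8181514 on the minus strand, that of *IAA3* at chr1:1129010-1129136 on the minus strand, that of *IAA29* at chr4:15583936-15583980 on the plus strand, that of *IAA7* at chr3:8195005-8195606 on the plus strand and that of *IAA17* at chr1:1136619-1136976 on the plus strand. All but that of *IAA29* are joined across an intron.
IAA2: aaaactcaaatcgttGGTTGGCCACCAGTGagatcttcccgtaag
IAA3: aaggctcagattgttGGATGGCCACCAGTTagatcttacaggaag
IAA29: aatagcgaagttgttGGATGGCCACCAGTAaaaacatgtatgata
IAA7: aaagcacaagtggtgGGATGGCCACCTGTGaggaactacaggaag
IAA17: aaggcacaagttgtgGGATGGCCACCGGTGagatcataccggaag
The core, searched for in frame as any run of codons for these residues in this order, was found in 16 of the 28 Aux/IAA genes. For the core and for the leucine repeat below, only the first listed protein of each gene was searched, and other isoforms were not. Another 6 (*IAA8*, *IAA10*, *IAA11*, *IAA12*, *IAA13* and *IAA27*) held the first 4 of these codons with another codon in the fifth place. The remaining 6 (*IAA20*, *IAA30*, *IAA31*, *IAA32*, *IAA33* and *IAA34*) held neither. A leucine repeat of the LxLxL type, the motif that recruits TOPLESS, was found within the first 100 codons of 27 of the 28, all but *IAA33*.

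The promoters of the 4 overexpressed members are shown because these genes moved in the same direction. Each is the 250 bases before the RefSeq gene start (TAIR10.1), 5′ to 3′ in the direction of the gene, and capitals mark matches to the auxin response elements TGTCTC and TGTCGG or to the G-box CACGTG, on either strand. The windows are chr3:8182096-8182345, minus strand, for *IAA2*, chr1:1129690-1129939, minus strand, for *IAA3*, chr4:15583082-15583331, plus strand, for *IAA29*, and chr4:13653329-13653578, plus strand, for *GH3.5*.
IAA2: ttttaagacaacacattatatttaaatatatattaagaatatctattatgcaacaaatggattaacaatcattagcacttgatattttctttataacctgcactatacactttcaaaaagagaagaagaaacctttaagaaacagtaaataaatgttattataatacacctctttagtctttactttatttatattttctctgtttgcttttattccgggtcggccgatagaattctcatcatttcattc
IAA3: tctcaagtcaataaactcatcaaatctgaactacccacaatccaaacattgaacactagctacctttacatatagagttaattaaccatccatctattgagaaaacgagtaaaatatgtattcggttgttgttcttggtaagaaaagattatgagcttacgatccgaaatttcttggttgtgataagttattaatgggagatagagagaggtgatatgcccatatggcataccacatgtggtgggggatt
IAA29: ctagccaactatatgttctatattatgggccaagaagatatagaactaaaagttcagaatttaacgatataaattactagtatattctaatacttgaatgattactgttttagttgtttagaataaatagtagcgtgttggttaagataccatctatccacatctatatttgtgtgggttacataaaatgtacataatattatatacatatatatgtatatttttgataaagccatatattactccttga
GH3.5: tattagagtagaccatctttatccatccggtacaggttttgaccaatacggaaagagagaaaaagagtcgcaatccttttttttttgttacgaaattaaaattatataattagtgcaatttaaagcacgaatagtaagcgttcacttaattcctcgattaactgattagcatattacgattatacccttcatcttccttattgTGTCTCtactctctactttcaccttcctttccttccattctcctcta
Only *GH3.5* among these 4 had a match, a TGTCTC that begins 47 bases before the RefSeq gene start. In all 4 genes that start lies upstream of the one in the deposited annotation, and the bases between them were not scanned. TGTCTC was present in the windows of 12 of the 34 members and in 10.9% of 27443 windows of protein-coding genes. TGTCGG was present in 6 of the 34 and in 4.16% of all windows, and CACGTG in 5 of the 34 and in 6.49% of all. A match to these letters is not evidence of a site, and a window without one is a statement about these bases alone.

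Of the 34 members, 30 reached a mean of 10 counts in 1 or both genotypes and were tested. *IAA5*, *IAA31* and *IAA34* had at most 16 counts in any library, and *GH3.4* had none in any of the 6. An absence of counts allows up to 0.0740 to 0.0889 CPM per library, counting error only. Expression was tested with edgeR's quasi-likelihood test over all 22182 genes that met the same minimum, and a gene was called differentially expressed when its adjusted p (FDR) was below 0.05 and its log2 fold change was above 0.58 in size. By this rule 4 members were called, 3 Aux/IAA genes (*IAA2*, *IAA3* and *IAA29*) and 1 GH3 gene (*GH3.5*), and all 4 were overexpressed in *prp40c-1*. Among all genes tested 3.67% were called, 2.81% as overexpressed and 0.852% as underexpressed. The median log2 fold change was 0.045 over the 30 members and -0.00094 over all genes tested. With whole seedlings, more cells of a type and more RNA per cell cannot be told apart.

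**Figure D1:**
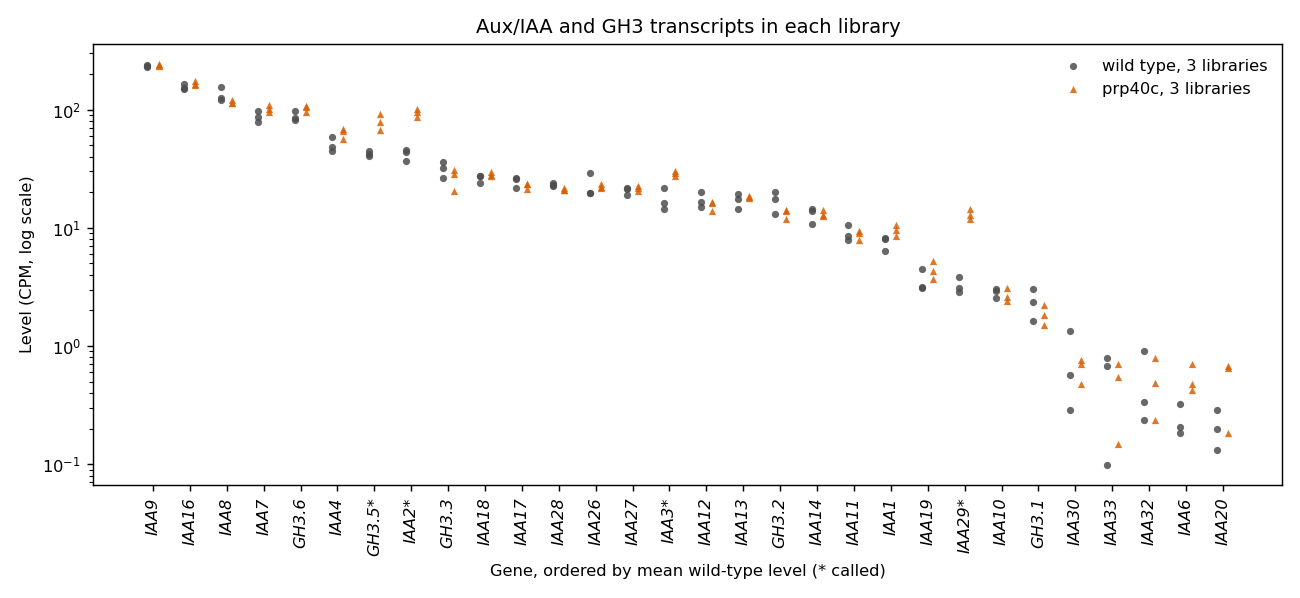
Level of the 30 tested Aux/IAA and GH3 genes in each of the 6 libraries, in CPM on a log axis, ordered by the mean of wild type. Circles are wild-type and triangles *prp40c* libraries, and asterisks mark the 4 called genes, in which every mutant library lies above every wild-type library.

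*IAA29* (AT4G32280, chr4:15583387-15584769), an Aux/IAA repressor known as a target of phytochrome-interacting factors, showed the largest change of the 4 called genes. It was measured at 2.83, 3.102 and 3.85 CPM in wild type and at 12.9, 11.9 and 14.5 CPM in *prp40c-1*. The lowest mutant library was therefore above the highest wild-type library, and the mutant mean was 4.01-fold that of wild type (log2 fold change 2.00, SE 0.15, adjusted p = 4.5e-07). In wild type it ranked 23 of the 34 by level per kb of transcript, and in the mutant 15.

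*IAA2* (AT3G23030, chr3:8180768-8181800), a classical early auxin response gene, was measured at 37.0, 43.9 and 45.1 CPM in wild type and at 85.6, 94.9 and 101.7 CPM in *prp40c-1*. The genotypes were far apart relative to the spread between libraries, with a 2.24-fold difference (log2 fold change 1.16, SE 0.086, adjusted p = 3.7e-07). Its rank by level per kb moved from 5 to 3.

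*IAA3* (AT1G04240, chr1:1128188-1129551), also called *SHY2*, a repressor that acts in root meristem growth, was measured at 14.3, 16.3 and 21.7 CPM in wild type and at 29.95, 27.6 and 28.9 CPM in *prp40c-1*. The wild-type libraries were spread more widely than the mutant ones, and the groups did not overlap (1.65-fold, log2 fold change 0.72, SE 0.12, adjusted p = 0.0012).

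*GH3.5* (AT4G27260, chr4:13653609-13656204), an enzyme that can conjugate both auxin and salicylic acid, was measured at 42.1, 44.9 and 40.4 CPM in wild type and at 67.1, 78.9 and 91.2 CPM in *prp40c-1*. Here the mutant libraries were the more spread, and the lowest of them was still above every wild-type library (1.86-fold, log2 fold change 0.90, SE 0.095, adjusted p = 1.4e-05).

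**Figure D2:**
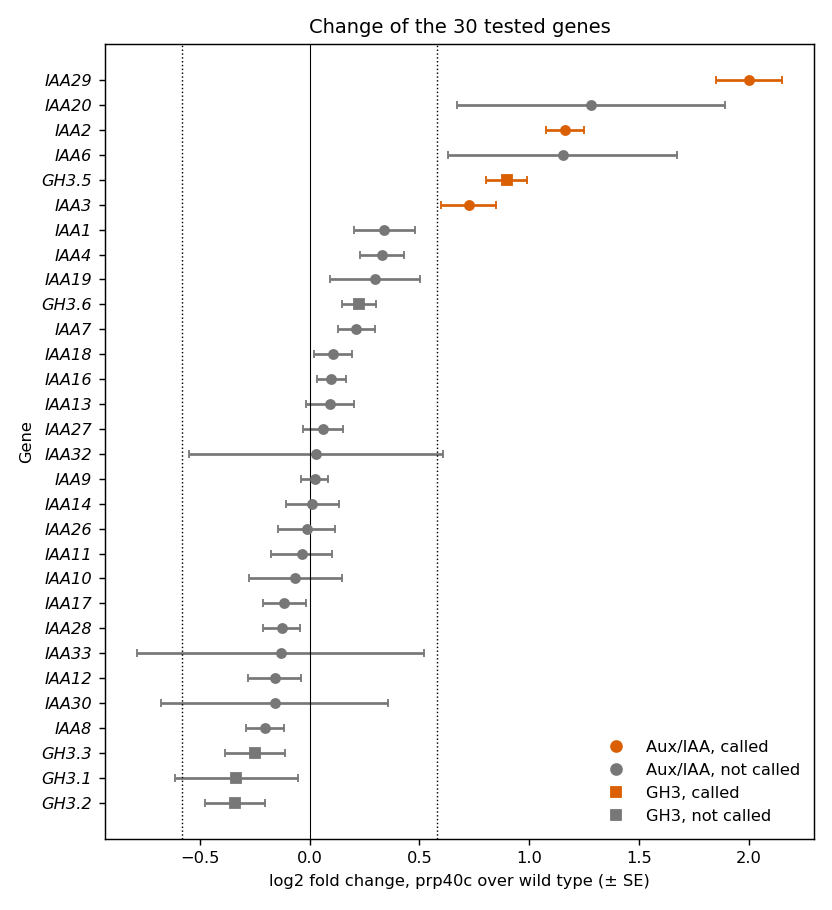
Fitted log2 fold change of *prp40c* over wild type for each of the 30 tested genes, with bars of 1 standard error. Circles are Aux/IAA and squares GH3 genes, orange marks the 4 called genes, and dotted lines are the fold change threshold of 0.58 in either direction. *IAA20* and *IAA6* lie beyond the threshold with standard errors of 0.61 and 0.52 and were not called.

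*IAA4* (AT5G43700), a close relative of *IAA3*, was the single member with an adjusted p below 0.05 and a fold change under the threshold, which made 5 of the 30 members past that p alone against 11.2% of all genes tested. It was measured at 48.6, 44.2 and 58.7 CPM in wild type and at 68.3, 56.2 and 65.8 CPM in *prp40c-1*, so that the groups overlapped in 1 library of each (log2 fold change 0.33, SE 0.099, adjusted p = 0.043). Over the alternative analyses that gave it a value, its adjusted p was between 0.0031 and 0.16.

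The chromosomal neighbours of *IAA2* and *IAA3* were not called. *IAA7* (AT3G23050, also called *AXR2*) lies 12.9 kb from *IAA2* with 1 listed gene between them. It was measured at 78.5, 87.2 and 97.8 CPM in wild type and at 95.4, 100.4 and 109.7 CPM in the mutant, groups that overlapped (log2 fold change 0.21, SE 0.082, adjusted p = 0.12), against 1.16 for *IAA2*. *IAA17* (AT1G04250, also called *AXR3*) lies 6.71 kb from *IAA3* with no listed gene between them. It was measured at 26.4, 21.5 and 25.9 CPM in wild type and at 23.5, 21.1 and 23.6 CPM in the mutant (log2 fold change -0.12, SE 0.098, adjusted p = 0.52), against 0.72 for *IAA3*. The difference within each pair was not tested.

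The third neighbouring pair, *IAA1* and *IAA14*, lies 11.04 kb apart on chromosome 4. *IAA1* (AT4G14560), like *IAA2* an early auxin response gene, was measured at 6.31, 8.15 and 8.07 CPM in wild type and at 10.5, 9.48 and 8.54 CPM in the mutant. Every mutant library was above every wild-type library, but the gene was not called (log2 fold change 0.34, SE 0.14, adjusted p = 0.14). *IAA14* (AT4G14550, also called *SLR*), a repressor of lateral root formation, was measured at 10.7, 13.9 and 14.3 CPM in wild type and at 12.7, 12.5 and 14.1 CPM in the mutant, with the groups interleaved (log2 fold change 0.013, SE 0.12, adjusted p = 0.97).

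Per kb of transcript, the highest Aux/IAA level in both genotypes was that of *IAA9* (AT5G65670), a repressor whose tomato counterpart acts in leaf shape, at 144.1 ± 3.24 CPM per kb in wild type and 146.5 ± 2.49 in the mutant (SD, n = 3 libraries). Its libraries ranged over 239.9, 229.6 and 232.6 CPM in wild type and 242.5, 235.0 and 236.1 CPM in the mutant, groups that overlapped (log2 fold change 0.023, SE 0.061, adjusted p = 0.86). *IAA16* and *IAA8* followed it in wild type at 121.4 ± 6.82 and 81.9 ± 11.9 CPM per kb. Across the 28 Aux/IAA genes the mean level in wild type ran from 0.220 CPM per kb for *IAA5* to that of *IAA9*.

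The 16 other tested Aux/IAA genes had log2 fold changes between -0.20 (*IAA8*) and 1.28 (*IAA20*), 8 above 0 and 8 below 0, with adjusted p between 0.16 and 0.98. *IAA20*, a gene without the degron core, was measured at 0.286, 0.131 and 0.197 CPM in wild type and at 0.184, 0.681 and 0.652 CPM in the mutant (SE 0.61, adjusted p = 0.21). *IAA6*, also called *SHY1*, was measured at 0.208, 0.184 and 0.321 CPM in wild type and at 0.420, 0.709 and 0.474 CPM in the mutant (log2 fold change 1.15, SE 0.52, adjusted p = 0.18). Both reached the mean of 10 counts in the mutant alone, where they were higher, and rest on at most 26 counts in a library, and a change of this size was not distinguishable from the spread between libraries at that depth.

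Among the remaining GH3 genes no member was called. *GH3.6* (AT5G54510, also called *DFL1*) had the highest level per kb of the family in both genotypes, at 40.3 ± 3.58 CPM per kb in wild type and 47.1 ± 2.77 in the mutant (SD, n = 3). It was measured at 85.4, 81.5 and 96.5 CPM in wild type and at 95.8, 104.7 and 107.4 CPM in the mutant, overlapping in 1 library of each (log2 fold change 0.22, SE 0.076, adjusted p = 0.071). The other 3 measured genes had fitted values below 0. *GH3.2* (AT4G37390) was measured at 17.4, 20.1 and 13.03 CPM in wild type and at 14.2, 13.8 and 11.9 CPM in the mutant (log2 fold change -0.34, SE 0.14, adjusted p = 0.14). *GH3.3* (AT2G23170) was measured at 32.2, 36.2 and 26.6 CPM in wild type and at 31.0005, 28.5 and 20.3 CPM in the mutant (log2 fold change -0.25, SE 0.14, adjusted p = 0.29). *GH3.1* (AT2G14960) was measured at 2.36, 3.02 and 1.63 CPM in wild type and at 2.20, 1.83 and 1.51 CPM in the mutant (log2 fold change -0.33, SE 0.28, adjusted p = 0.51). In all 3 genes the groups overlapped, and replicate 3 was the lowest library of each genotype.

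Summed over the 28 Aux/IAA genes, levels were 880.5, 874.7 and 988.4 CPM in wild type and 1014.4, 988.9 and 1036.6 CPM in the mutant, so the groups nearly met. Over the 6 GH3 genes the sums were 179.4, 185.7 and 178.2 CPM in wild type and 210.4, 227.8 and 232.3 CPM in the mutant. Such sums weigh the genes of highest level most. In mean level *GH3.5* went from 42.4 CPM in wild type to 79.1 in the mutant and *GH3.6* from 87.8 to 102.6. *GH3.1*, *GH3.2* and *GH3.3* were lower in the mutant. *IAA2* alone went from 42.0 to 94.1 CPM, while 9 of the 25 tested Aux/IAA genes had fitted values below 0. Counted gene by gene, 6 of the 30 tested members had every mutant library above every wild-type library (the 4 called genes, *IAA1* and *IAA6*, the last of which reached the minimum for testing only through the mutant) and 1, *IAA28*, had every mutant library below. Over all genes tested the groups did not overlap for 29.0%, with the mutant higher for 15.5% and lower for 13.5%, so the members' share, 7 of 30, was near the background.

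**Figure D3:**
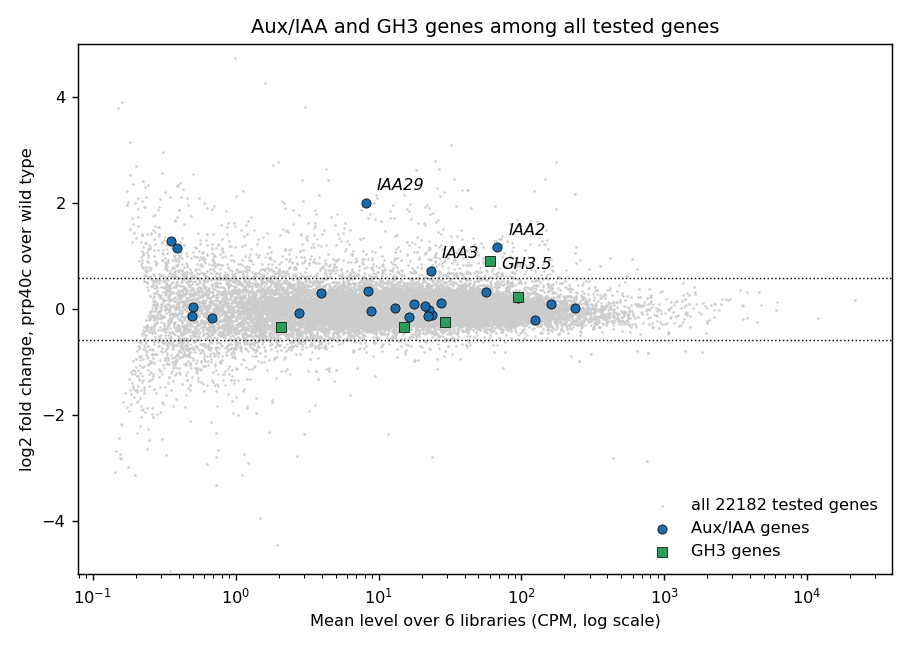
Log2 fold change of *prp40c* over wild type against the mean level of the 6 libraries (CPM, log axis) for all 22182 tested genes in grey, with Aux/IAA genes as blue circles and GH3 genes as green squares. 4 genes lie outside the plotted range of 5 in either direction. The called members *IAA29*, *IAA2*, *GH3.5* and *IAA3* are named, and most other members lie between the dotted thresholds of 0.58.

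The median spread between libraries of one genotype was higher for the members than over all genes, a comparison that was not tested. For the 22 members at 5 CPM or more the median within-genotype SD of log2 CPM (pseudocount 0.5 CPM) was 0.156, against 0.108 over the 16050 tested genes at that level. Wild-type replicate 3 was the highest wild-type library for 13 of these 22 members, and *prp40c-1* replicate 2 was the lowest mutant library for 12 of the 22. *GH3.3*, *GH3.2* and *IAA26* were the most variable of them, with SDs of 0.27, 0.24 and 0.23. Leaving out any single library kept all 4 called members called.

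Markers of other tissues were compared between genotypes, since whole seedlings mix organs. The summed levels of 5 leaf mesophyll markers were 27225 to 28938 CPM in wild type and 27177 to 28410 CPM in the mutant, and those of 5 root markers were 2261 to 2430 and 2409 to 2669 CPM. The 3 shoot meristem markers summed to 18.9 to 26.02 and 20.1 to 23.4 CPM, and 5 flower markers to 1.23 to 2.00 and 1.36 to 1.69 CPM. All of these ranges overlapped, although single leaf markers moved apart. *CAB2* was higher in every mutant library (log2 fold change 0.32, adjusted p = 0.014), and *RBCS1A* and *RBCS2B* were lower in every one (-0.16 each, adjusted p = 0.096 and 0.12). The 6 seed markers summed to 0.578 to 0.987 CPM in wild type and 0.385 to 0.499 in the mutant, with *CRU3* and *SESA1* at 0 counts in every library. These ranges did not overlap, but they rest on few counts and the list was mixed. The 2 tested seed markers, *CRA1* and *EM6*, had fitted values below 0 and were not called, while *OLEO1* was higher in every mutant library. The part of these tissue markers in the members' changes was not tested.

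The rest of the auxin pathway was read from the same fit. Of 65 further genes in 8 lists, 63 were tested and 5 were called, all overexpressed in *prp40c-1*, against 3.67% of all genes. The count was 3 when wild-type replicate 1 was left out and 3 when *prp40c-1* replicate 3 was, and it was 7 with edgeR's exact test, where *UGT74E2* and *LBD16* were also called, as underexpressed. None of the 6 TIR1/AFB receptors, the 15 ARF transcription factors or the 5 TOPLESS family corepressors was called, and their log2 fold changes lay between -0.18 and 0.31. In these 3 lists *ARF1*, a repressing ARF, was the single gene with an adjusted p below 0.05 (log2 fold change 0.21, adjusted p = 0.039).

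Auxin synthesis genes made up 3 of the 5 called. *YUC5*, *YUC8* and *YUC9* encode flavin monooxygenases that catalyse the last step from indole-3-pyruvate to auxin. *YUC5* was measured at 1.20, 1.84 and 1.14 CPM in wild type and at 4.75, 7.17 and 6.73 CPM in the mutant (log2 fold change 2.16, SE 0.24, adjusted p = 2.1e-05). *YUC9* was measured at 2.60, 3.47 and 2.71 CPM in wild type and 5.22, 4.69 and 6.82 CPM in the mutant (0.93, SE 0.20, adjusted p = 0.0064). *YUC8* was measured at 3.27, 4.10 and 4.12 CPM in wild type and 7.53, 5.51 and 6.02 CPM in the mutant (0.73, SE 0.18, adjusted p = 0.014). The mutant was above wild type in every library of the 3 genes. The 7 other synthesis genes were not called, among them *TAA1*, the aminotransferase of the preceding step, at -0.35 (adjusted p = 0.064). The call of *YUC8* was lost without wild-type replicate 1 (0.63) or *prp40c-1* replicate 1 (0.59), and that of *YUC9* without *prp40c-1* replicate 3 (0.76). These fold changes were above the threshold, and the calls were lost on the adjusted p. Over the 14 alternatives it reached 0.067 for *YUC8* and 0.056 for *YUC9*.

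The other called genes were *PIN3*, an auxin efflux carrier of tropic responses, and *HAT2*, an auxin-induced homeodomain regulator. *PIN3* was measured at 114.1, 125.8 and 116.8 CPM in wild type and 172.0, 173.8 and 193.3 CPM in the mutant, with a log2 fold change of 0.60 (SE 0.070, adjusted p = 3.9e-05), just above the threshold, and fell under it without wild-type replicate 1 (0.56) or *prp40c-1* replicate 3 (0.54). *HAT2* was measured at 21.8, 24.6 and 24.3 CPM in wild type and 32.7, 38.2 and 40.2 CPM in the mutant (0.65, SE 0.093, adjusted p = 0.00025). Among the transport genes, another pair had adjusted p values below 0.05 and fold changes under the threshold, the root carrier *PIN2* at -0.32 (adjusted p = 0.045) and the transporter *ABCB19* at 0.24 (adjusted p = 0.024). Of the genes for other routes of auxin inactivation and release 8 were tested and none was called by the quasi-likelihood test. Among them *UGT74E2*, a glucosyltransferase of the auxin indole-3-butyric acid, was measured at 17.6, 13.6 and 8.34 CPM in wild type and 10.1, 9.10 and 5.69 CPM in the mutant, groups that overlapped (log2 fold change -0.67, SE 0.23, adjusted p = 0.078). It was called as underexpressed in 5 of 14 alternatives, and its adjusted p ran from 0.0021 to 0.34 over them. Without wild-type replicate 1 or *prp40c-1* replicate 3 its log2 fold change was -0.40 or -0.46, and without wild-type replicate 3 or *prp40c-1* replicate 1, where it was called, -0.91 or -0.83. Not called either were *JAR1* and *PBS3*, GH3 enzymes that act on jasmonate and in salicylic acid synthesis. The 3 LBD genes, regulators of lateral root formation, were not called either, with *LBD16* at -0.78 (adjusted p = 0.085), *LBD29* at -0.62 (adjusted p = 0.46) and *LBD18* at 0.026 (adjusted p = 0.97). *LBD16* was called as underexpressed in 2 of 14 alternatives, edgeR's exact test and without wild-type replicate 3 (-0.97), and its adjusted p ran from 0.036 to 0.29 over them.

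**Figure D4:**
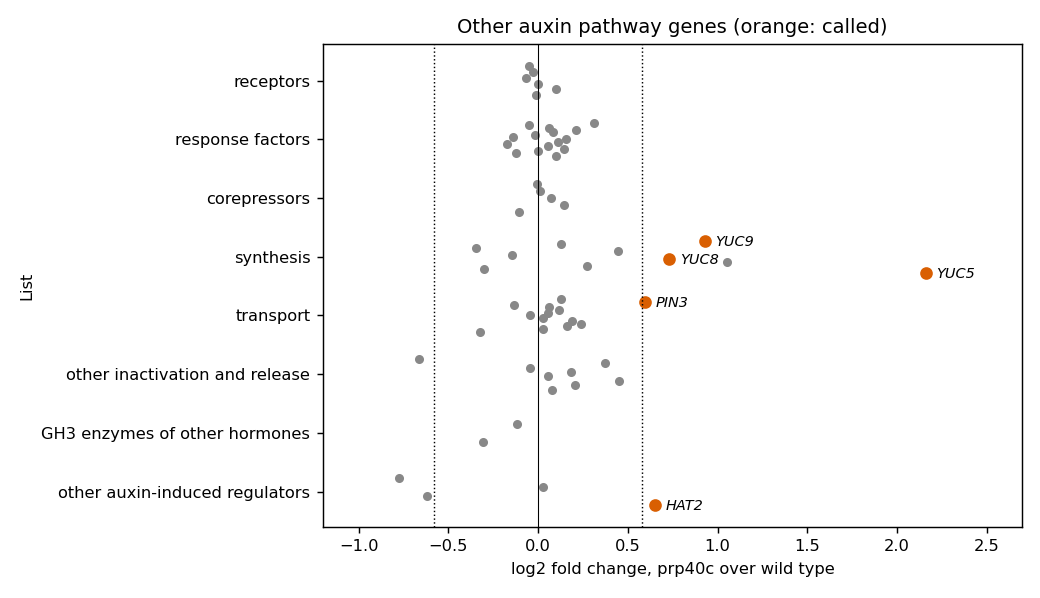
Log2 fold change of *prp40c* over wild type for the 63 tested genes of the 8 other auxin pathway lists, 1 point a gene and 1 row a list, with dotted lines at the threshold of 0.58. The 5 called genes are orange and named, 3 of them in synthesis, and the receptors, response factors and corepressors lie between -0.18 and 0.31.

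Splicing of the members was read from the reads that cross each exon-intron boundary and those that join the exons, because the mutated gene is related to splicing factors. The retained share of an intron is given as boundary reads over boundary reads plus 2 times spliced reads, since an intron has 2 boundaries. An intron was called when the change in boundary relative to spliced reads between genotypes had an FDR below 0.15 and a log2 size above 0.58. Of 100 intron entries of the members, 73 had all 3 kinds of count and 31, in 18 genes, had enough reads to be tested. edgeR's quasi-likelihood test called 0 of these 31, and 0 (0% of the background) of all 13735 introns tested. At an unadjusted p below 0.05 there were 3 members' introns of 31, against 10.6% of all introns. The fitted change was below 0 for 23 of the 31 and above 0 for 8. The median change was -0.28 over these 31, against 0.19 over all introns tested, a description with no test. For boundary reads a mean of 5 in either genotype sufficed, so an intron could pass only through the genotype where they were more frequent. The directions are therefore not read as a result. DESeq2's test of the same interaction called 0 members' introns and 111 over all introns.

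The introns of the 4 overexpressed genes showed no called change. The intron of *IAA2* was retained in wild type at 2.89% ± 0.90 and in the mutant at 2.78% ± 1.09 (SD, n = 3), and the tested intron of *GH3.5*, the second, at 1.58% ± 0.73 and 1.49% ± 0.25. The intron of *IAA3* at chr1:1128640-1128743 had a share of 5.47% ± 2.58 in wild type and 5.26% ± 1.21 in the mutant. Its intron at chr1:1129053-1129134, nearer the start of this minus-strand gene, had 2.95% ± 0.90 and 1.53% ± 1.48. The adjusted p values of these 4 introns were between 0.62 and 0.99. That of *GH3.5* reached the minimum of 5 boundary reads only through the mutant.

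*IAA29* had the most retained introns of the members. Its first intron (chr4:15583739-15583922) had a retained share of 31.4%, 23.5% and 18.8% in wild type and of 12.3%, 16.4% and 13.8% in *prp40c-1*. The groups did not overlap, but these shares rest on 6 to 11 boundary and 12 or 13 spliced reads per wild-type library and the intron was not called (log2 change -0.98, SE 0.69, adjusted p = 0.65). Its second intron had a retained share of 12.5%, 25.0% and 15.2% in wild type and of 24.8%, 27.4% and 17.8% in the mutant, groups that overlapped (0.54, SE 0.72, adjusted p = 0.82). The third intron had a retained share of 7.14%, 0% and 0% in wild type and of 13.3%, 2.33% and 4.55% in the mutant, also overlapping, on 0 to 2 boundary reads per wild-type library (1.51, SE 1.22, adjusted p = 0.69). Over all the members' tested introns the median retained share in wild type was 1.82%, with libraries pooled, against 2.46% over all introns tested.

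The 3 introns of members with an unadjusted p below 0.05 were in *IAA11*, *IAA7* and *IAA12*. Each reached the minimum of 5 boundary reads only through the genotype where they were more frequent, so the minimum itself favoured a difference, and the values are given as a description. The intron of *IAA11* annotated as retained in some transcripts had 0, 0 and 0 boundary reads in wild type and 2, 12 and 3 in the mutant, beside 53 to 102 spliced reads. The fourth intron of *IAA7* had 1, 1 and 1 boundary reads in wild type and 5, 9 and 7 in the mutant, beside 620 to 933 spliced reads. An annotated retained intron of *IAA12* had 9, 8 and 0 boundary reads in wild type and 0, 0 and 0 in the mutant. Their adjusted p values were 0.35, 0.36 and 0.40.

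**Figure D5:**
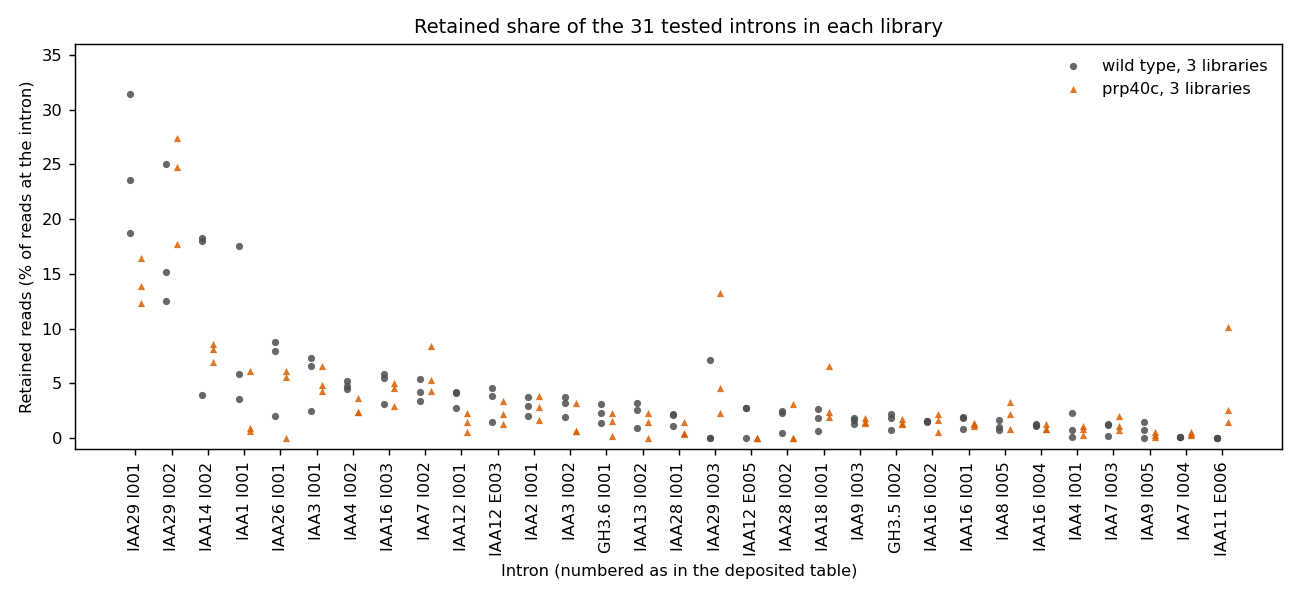
Retained share (% of reads at the intron, boundary reads over boundary reads plus 2 times spliced reads) of the 31 tested introns of members in each library, ordered by the pooled wild-type share. Circles are wild-type and triangles *prp40c* libraries, and the first 2 introns of *IAA29* stand above most others in both genotypes.

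Annotated alternative 3′ splice sites with junction reads for both acceptors were present in *IAA8*, *IAA9* and *IAA13*, all within coding sequence. They are shown because the choice between acceptors a multiple of 3 bases apart changes the protein without shifting the frame. The sequence is the reference of TAIR10.1, 5′ to 3′ along the gene, and capitals mark the AG of each acceptor, at chr2:9638400-9638427 on the plus strand for *IAA8*, chr5:26256075-26256102 on the plus strand for *IAA9* and chr2:14115258-14115282 on the minus strand for *IAA13*.
IAA8: atttattctgtggcAGctccAGgtgcag
IAA9: actggtgatattgcAGctgcAGctccga
IAA13: tttgctttgtttgtAGcAGtcaagt
The acceptors lie 6 bases apart in *IAA8* and *IAA9* and 3 bases apart in *IAA13*. In *IAA8* the upstream acceptor took 96.4%, 94.7% and 97.5% of junction reads in wild type and 96.4%, 94.95% and 94.5% in the mutant. In *IAA9* it took 94.97%, 96.0% and 95.3% in wild type and 94.4%, 95.2% and 93.2% in the mutant. In *IAA13* it took 11.02%, 6.87% and 17.5% in wild type and 22.2%, 8.70% and 20.9% in the mutant. The upstream acceptor was thus the main one in *IAA8* and *IAA9* and the minor one in *IAA13*, the genotypes overlapped in all 3 genes, and no test was run on these shares.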

How the data were processed

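Raw read counts per gene and per splice junction or exon-intron boundary, deposited by the authors, were used. Per the labels and the study's methods, the authors mapped paired reads of TruSeq libraries to TAIR10 with TopHat2 2.1.1 and SAMtools 1.3 and counted them with custom R scripts. The treatment of strand and of multi-mapping reads was not given in the sources used here. A second deposited measurement, the length of each gene in bases (effective length), was used to compare genes per kb. The authors' own per-genotype splicing ratios were not used.

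Counts were normalised with TMM factors and tested with edgeR 4.0.16 (R 4.3.3) across the 22182 genes whose mean reached 10 counts in 1 or both genotypes, with genotype as the single term and Benjamini-Hochberg adjustment over all of them. CPM used the TMM-adjusted totals. Introns needed 5 spliced reads on average in both genotypes and 5 boundary reads in either, and were tested for the interaction of read type with genotype, with 1 effect per library and the gene-level library sizes. A fold change is of *prp40c-1* over wild type. On simulated counts the gene test called 48 of 50 genes changed 2-fold upward and 3 of 21801 unchanged ones. The intron test called 24 of 99 introns changed 4-fold and 97 of 100 changed 16-fold, so smaller splicing changes could be missed. The changed genes and introns were drawn from those above a minimum level. These rates therefore do not cover members below 1 CPM or introns with the fewest boundary reads. DESeq2 1.42.0 served as an alternative. Of 89665 introns in the junction table, 99.0% began with GT and ended with AG in RefSeq's TAIR10.1 sequence, and 34 of 34 members matched its annotation by locus.

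The 34 members, the pathway and marker lists and the tests were chosen with earlier results of these data known. Values in every library are given for members that were called, for those with an adjusted p below 0.05 under the fold threshold, for the highest level per kb in each family, for the 3 neighbouring pairs and for the GH3 genes. The G-box, the 4-codon degron search and, among other Aux/IAA genes, *IAA6*, *IAA8*, *IAA16*, *IAA20* and *IAA28* were added after values were seen, as were the introns given by value and *UGT74E2*.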

Additional observations from a re-analysis of the deposited data

How the results depend on the processing

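All 4 called members stayed called in each of the 14 alternatives that gave a value per gene (edgeR's exact test, DESeq2, 3 other scalings, 2 other filters on low counts, the replicate block and each library left out), with log2 fold changes of 1.91 to 2.14 for *IAA29*, 1.08 to 1.23 for *IAA2*, 0.78 to 1.00 for *GH3.5* and 0.60 to 0.91 for *IAA3*. Without the fold threshold 2485 genes and 8 other pathway genes passed. With 1 library left out, between 3 and 7 pathway genes were called, the lowest without wild-type replicate 1 or *prp40c-1* replicate 3. The count of pathway genes was 7 with the exact test and 6 with no filter or with the replicate block. With upper quartile scaling, which lowered the median log2 fold change of all genes by 0.035, *PIN3* was at 0.56, under the threshold, and values near 0 changed sign, to -0.012 for *IAA9*, -0.023 for *IAA14* and -0.00060 for *IAA32*. With 1 library left out, uncalled members whose sign changed ranged from -0.18 to 0.0088 for *IAA10*, -0.12 to 0.097 for *IAA11*, -0.012 to 0.19 for *IAA13*, -0.11 to 0.090 for *IAA14*, -0.11 to 0.20 for *IAA26*, -0.00064 to 0.096 for *IAA27*, -0.54 to 0.59 for *IAA30*, -0.44 to 0.82 for *IAA32* and -0.63 to 0.30 for *IAA33*. The cause of these sign changes was not tested. Over all introns, 137 were called with a minimum mean of 10 reads, 9 with library sizes taken as separate totals of boundary and of spliced reads and 111 with DESeq2, against 0 in the test reported, and no intron of a member was called in any of these. The replicate numbers did not pair the libraries (correlations of same-numbered deviations -0.0049, 0.050 and 0.032), and with the replicate block 819 genes and the 4 members were called, *IAA26* was at 0.0080 and 0 introns were called. The depth limits the members below 1 CPM and the introns with few boundary reads.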
